A study of Mus musculus with 10 samples.

Results

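White adipocyte genes are those that a mature, fat-storing white fat cell uses to store and release triglyceride and to signal to other organs. The 10 followed here were chosen by name as markers of this cell: the hormones and secreted factors Adipoq, Lep and Cfd, the lipid droplet proteins Plin1, Plin4 and Cidec, the fatty acid handlers Lpl and Fabp4, and the lipases Pnpla2 and Lipe. They were 10 of 24543 entries of a gene table from RNA sequencing of mouse dorsal skin, and all 10 were among the 14026 genes that passed the expression filter of at least 1 RPKM in at least 2 libraries. RPKM are reads scaled by the length of the gene and the size of the library, so that levels of different genes can be set side by side.

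The mice were C57BL/6 and either carried an ablated Dlx4 gene (KO) or an intact one (WT, littermates per the series title). Dlx4 is a homeobox transcription factor gene, and the sources used here do not give how its ablation was made or in which cells. Skin was taken from 2 KO and 2 WT mice at postnatal day 60 (P60, adult) and from 3 KO and 3 WT mice at postnatal day 1 (P1, newborn). The labels number the samples without stating litters, so p-values measure the spread between these samples only. The authors listed 36131011 to 74916106 alignments per library.

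Several facts of the whole data set bear on the values below. Dlx4 had 1.62 to 2.45 RPKM in KO P1 libraries and 2.93 to 3.78 RPKM in WT P1 libraries, and at most 0.125 RPKM in any P60 library, where it gives no check of genotype. KO P1 libraries thus kept Dlx4 reads, and where in the gene these lay was not analysed here. All P60 libraries came from a different sequencing run than the P1 libraries, and age cannot be told apart from run. Sex nearly coincided with age as well. All 4 P60 libraries and KO P1 replicate 2 had 22.3 to 35.0 RPKM of the Y-linked Eif2s3y, and the other 5 P1 libraries had at most 0.0164 RPKM. WT P60 replicate 1 stood apart from the other libraries in the white adipocyte genes, and results are given with and without it. In whole skin, fewer fat cells and less RNA per fat cell cannot be told apart.

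A white adipocyte holds a large lipid droplet whose surface is guarded by perilipin proteins. Fatty acids reach the cell after lipoprotein lipase has split circulating triglyceride, and they leave it when adipose triglyceride lipase and hormone-sensitive lipase break the stored fat down. In mouse skin these cells form the dermal white adipose layer beneath the dermis, which builds up around birth and thickens and thins with the hair cycle. Adipocyte genes are switched on during differentiation by PPAR gamma, which binds with RXR to a direct repeat, and by C/EBP proteins.

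Promoters, taken as 250 bases before to 50 bases after a start site (RefSeq, GRCm38.p6), were present for 8 of the 10 genes; none was used for Lpl and Fabp4. The direct repeat of AGGTCA with 1 base between the copies, searched on both strands, was in 0 of these 8 genes and in 0.0444% of all 27025 promoters. The looser form with AGGNCA in both copies was in 0 of 8 and in 0.381%. The C/EBP pattern TTNCNNAA, also searched on both strands, was in 4 of 8 (Adipoq, Lep, Cidec and Plin1) against 40.7% of all promoters, a share near the background. The TATAAA box was in 0 of 8 and in 14.2%. The 250 bases before the start are shown for 3 of the 4 genes with a C/EBP pattern, as examples. No link between the pattern and the levels was tested. Capitals mark the pattern, and a match is a description of the letters only.
Adipoq: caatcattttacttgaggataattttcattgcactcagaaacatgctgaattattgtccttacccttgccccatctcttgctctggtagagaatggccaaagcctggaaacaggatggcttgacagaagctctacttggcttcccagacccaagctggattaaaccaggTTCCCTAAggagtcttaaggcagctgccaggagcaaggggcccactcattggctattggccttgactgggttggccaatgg
Lep: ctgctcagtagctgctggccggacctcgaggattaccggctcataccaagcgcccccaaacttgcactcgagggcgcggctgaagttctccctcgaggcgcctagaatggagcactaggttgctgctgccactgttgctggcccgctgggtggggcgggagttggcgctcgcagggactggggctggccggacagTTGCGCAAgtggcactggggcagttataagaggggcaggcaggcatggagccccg
Cidec: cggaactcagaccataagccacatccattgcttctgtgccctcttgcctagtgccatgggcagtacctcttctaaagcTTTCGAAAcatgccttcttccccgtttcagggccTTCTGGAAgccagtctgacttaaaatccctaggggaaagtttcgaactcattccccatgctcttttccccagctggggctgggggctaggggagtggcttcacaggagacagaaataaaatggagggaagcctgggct
The Adipoq stretch (chr16:23146286-23146535, plus strand) held TTCCCTAA, with its first base at -81 from the start site. The Lep stretch (chr6:29059971-29060220, plus strand) held TTGCGCAA, which begins at -55 and reads the same on both strands. The Cidec stretch (chr6:113435761-113436010, minus strand) held matches that begin at -172 and -138. Another RefSeq start of Cidec, not shown, had a match that begins at -198. Where a gene had several starts, only the first listed was counted. In Plin1 the matches began at -247, -187 and -58 from the RefSeq start.

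**Figure D1:**
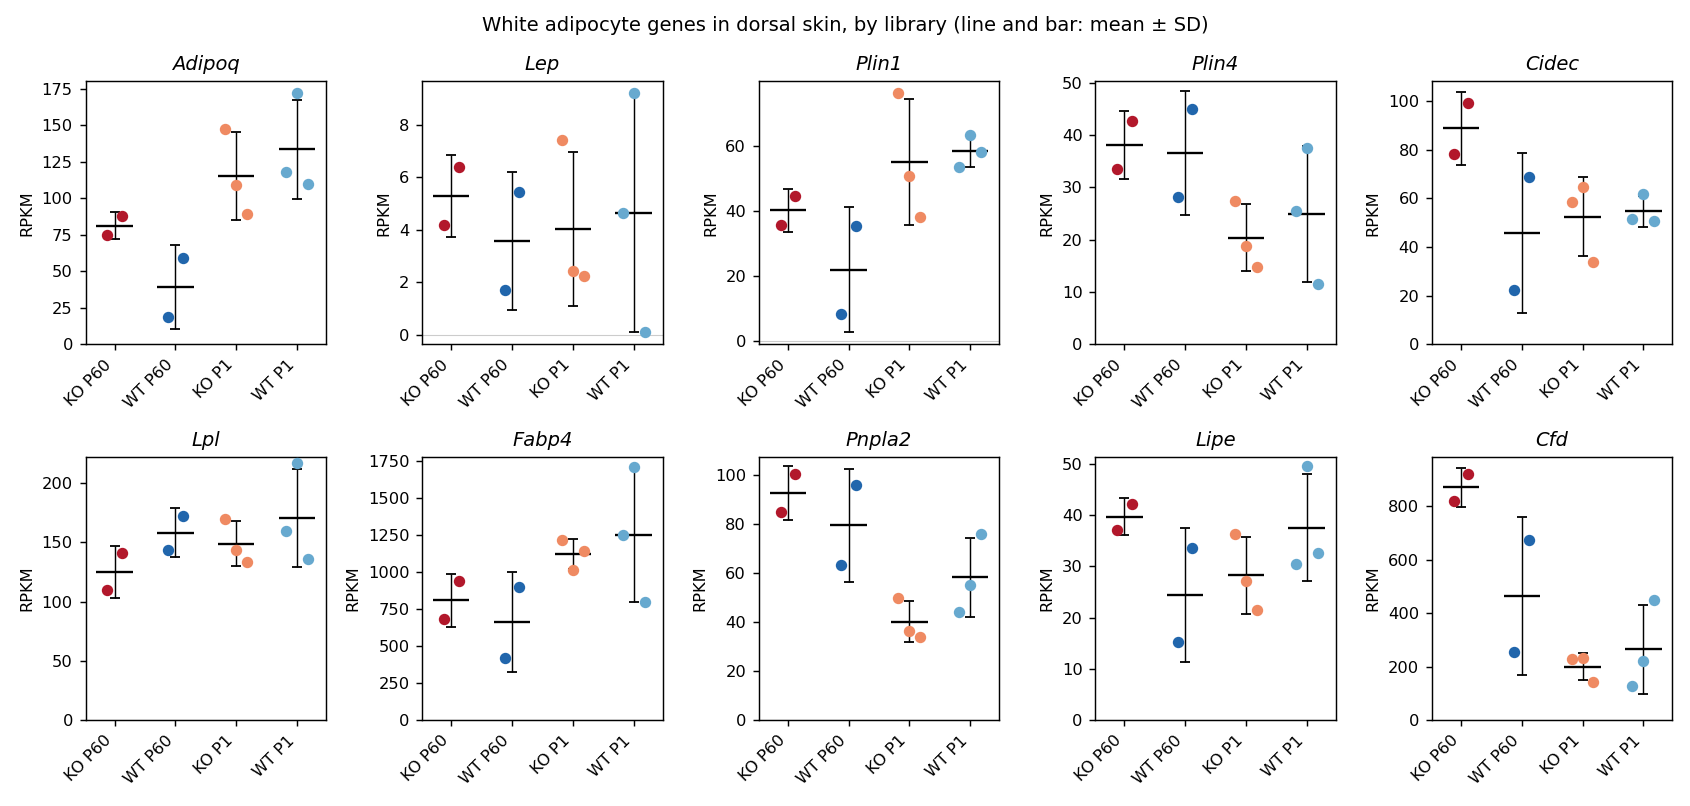
RPKM of each of the 10 white adipocyte genes (y axis, linear, from 0) in the 10 libraries, grouped on the x axis as KO P60, WT P60, KO P1 and WT P1; each point is a library, and the line and bar give the mean ± SD. Cfd is higher at P60 and Adipoq higher at P1, and the lower of the WT P60 points sits apart in Adipoq, Plin1 and Cidec.

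The genes differed widely in level. Fabp4, the cytosolic fatty acid carrier, was the highest in every P1 library at 795 to 1707 RPKM. At P60 Cfd, at 872 ± 72.5 RPKM in KO skin, lay beside Fabp4 at 808 ± 179 RPKM (SD, n = 2), a gap smaller than the spread. Lep, the satiety hormone leptin, was the lowest throughout, at 0.0965 to 9.22 RPKM. Together the 10 genes summed to 1960 and 2422 RPKM in KO P60 skin, 979 and 2090 RPKM in WT P60 skin, 1649 to 2014 RPKM in KO P1 skin and 1719 to 2593 RPKM in WT P1 skin. These sums were 0.237% to 0.728% of all RPKM in a library. Lpl varied least over the 10 libraries, with a highest level 1.98 times the lowest, and Lep varied most, at 95.5 times.

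The first question is whether adult skin of the KO genotype differed in these genes from WT skin. At P60, 0 of 10 passed an adjusted p of 0.05 (limma on log2(RPKM + 0.5), Benjamini-Hochberg over all 14026 genes), where 11.1% of all tested genes were called. At an unadjusted p under 0.05 there were 2 of 10, Adipoq and Cidec, against 32.1% of all genes. The estimates were above 0 for 9 of 10 (8 of 10 with median-of-ratios scaling, where Plin4 was at -0.063), beside 65.8% of all genes, with a median log2 difference of 0.72 beside 0.13 for all tested genes. This median rested on WT P60 replicate 1: it was 0.06 without that library and 1.35 without WT P60 replicate 2.

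Among the secreted factors, Adipoq encodes adiponectin, a hormone that raises insulin sensitivity. It had 74.7 and 88.1 RPKM in KO P60 skin, against 19.0 and 59.4 RPKM in WT P60 skin. Both KO libraries lay above both WT libraries, but the WT libraries differed more from each other than the nearer of them did from KO. The log2 difference was 1.26 (SE 0.45, 95% interval 0.26 to 2.26, adjusted p = 0.0898, limma). Cfd encodes adipsin, the protease complement factor D. It had 820 and 923 RPKM in KO P60 skin, against 256 and 675 RPKM in WT P60 skin. The groups did not overlap, and the log2 difference was 1.06 (SE 0.57, adjusted p = 0.226, limma). Lep had 4.17 and 6.39 RPKM in KO P60 skin and 1.72 and 5.43 RPKM in WT P60 skin. These groups overlapped, with a log2 difference of 0.64 (SE 1.10, adjusted p = 0.726, limma).

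Among the lipid droplet genes, Plin1 encodes the perilipin that coats the adipocyte droplet and controls access of lipases. It had 35.6 and 44.8 RPKM in KO P60 skin and 8.36 and 35.6 RPKM in WT P60 skin. The lower KO library and the higher WT library were nearly level, and the log2 difference was 1.18 (SE 0.53, adjusted p = 0.157, limma). Cidec, whose protein fuses small droplets into a large one, had 78.1 and 99.2 RPKM in KO P60 skin and 22.4 and 68.9 RPKM in WT P60 skin. The groups did not overlap, at a log2 difference of 1.15 (SE 0.45, adjusted p = 0.114, limma). Plin4, a perilipin of small and growing droplets, had 33.5 and 42.7 RPKM in KO P60 skin and 28.2 and 44.99 RPKM in WT P60 skin. The WT values enclosed the KO values, and the log2 difference was 0.09 (SE 0.47, 95% interval -0.97 to 1.14).

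Of the fatty acid handlers, Lpl, the lipoprotein lipase gene, was the only one of the 10 with an estimate below 0 at P60. It had 109.6 and 141 RPKM in KO P60 skin and 143 and 173 RPKM in WT P60 skin. Both KO libraries lay below both WT libraries, with a log2 difference of -0.34 (SE 0.22, adjusted p = 0.315, limma). Lpl is also made by muscle. Markers of muscle and of other cell types are given further on, and their part in the Lpl values was not tested. Fabp4 had 682 and 935 RPKM in KO P60 skin and 421 and 898 RPKM in WT P60 skin, which overlapped (log2 difference 0.38, SE 0.39).

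Pnpla2 encodes adipose triglyceride lipase, which takes the first fatty acid off a triglyceride. It had 84.9 and 101 RPKM in KO P60 skin and 63.2 and 95.9 RPKM in WT P60 skin, with overlap and a log2 difference of 0.25 (SE 0.28). Lipe encodes hormone-sensitive lipase, which acts next. It had 37.1 and 42.2 RPKM in KO P60 skin and 15.2 and 33.6 RPKM in WT P60 skin. These groups did not overlap, at a log2 difference of 0.79 (SE 0.36, adjusted p = 0.165, limma). In the GENCODE M21 annotation exons of Lipe and Plin4 overlap those of antisense neighbours (4732471J01Rik and Hdgfl2). The sources used here do not state whether counting used strand, so reads of these pairs cannot be told apart.

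Counted over the 10 genes, both KO libraries lay above both WT libraries in 5 at P60 (Adipoq, Plin1, Cidec, Lipe and Cfd), beside 42.7% of all tested genes. They lay below in 1 (Lpl), beside 18.8%. These shares are near those of all genes. The P60 libraries of each genotype differed in the same direction in all members. WT P60 replicate 2 was higher than replicate 1 in all 10 genes, by 1.20 to 4.26 times with a median of 2.42, while the median over all expressed genes was 0.991. KO P60 replicate 2 was also higher than replicate 1 in all 10, by 1.125 to 1.53 times. WT P60 replicate 1 was the lowest of the 4 P60 libraries in 9 of 10, all but Lpl, and the lowest of all 10 libraries in 5. WT P60 replicate 2 lay below both KO libraries in 5 genes, between them in 3 and above both in 2 (Plin4 and Lpl).

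**Figure D2:**
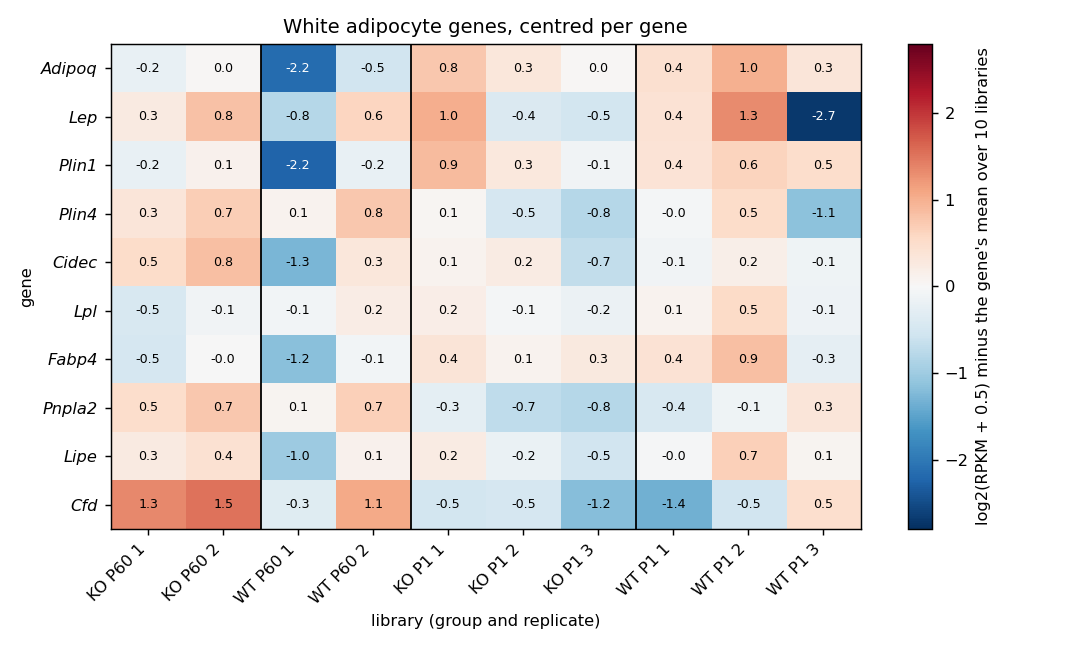
Heat map of log2(RPKM + 0.5) minus each gene's mean over the 10 libraries, with genes down the page and libraries across, ordered KO P60, WT P60, KO P1 and WT P1; red is above and blue below the gene's mean. WT P60 replicate 1 is blue in Adipoq and Plin1 at -2.16 and -2.24, and Lep in WT P1 replicate 3 is the bluest cell at -2.71.

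The call at P60 therefore changed with the WT libraries. Without WT P60 replicate 2, 3 of 10 genes were called higher in KO: Plin1 at 2.19, Adipoq at 2.07 and Cidec at 1.95 on the log2 scale (adjusted p of 0.0135, 0.0138 and 0.0200, limma). In that fit 4.91% of all genes were called higher. Without WT P60 replicate 1, 0 were called and 5 estimates were below 0. Adipoq then stood at 0.45, Cfd at 0.37, Cidec at 0.35, Lipe at 0.23 and Plin1 at 0.16. With a single WT library left, its spread is taken from the other groups.

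Values of markers of other cell types at P60 stand beside these. The 10 skeletal muscle markers summed to 20660 and 35000 RPKM in KO P60 skin and 47540 and 53630 RPKM in WT P60 skin. Estimates were below 0 in 10 of 10, and 1 was called lower, beside 2.91% of all genes. The 7 dermal fibroblast markers summed to 23150 and 9580 RPKM in KO P60 skin and 4255 and 5282 RPKM in WT P60 skin. Called higher were 7 of 7, beside 8.21% of all genes. The 7 macrophage markers summed to 579 and 522 RPKM in KO P60 skin and 185 and 352 RPKM in WT P60 skin. Called higher were 4 of 7. With the fit within each age, or without KO P1 replicate 2, 0% of all genes were called at P60. All calls of marker genes thus ended in these fits. Of the 8 endothelial markers, which bear on Fabp4 as a gene of capillaries too, 8 of 8 estimates were above 0 and 0 were called. Their sums were 73.5 and 77.8 RPKM in KO P60 skin and 61.2 and 69.1 RPKM in WT P60 skin. WT P60 replicate 1 had the lowest fibroblast, macrophage and endothelial sums of the P60 libraries. The part of these cells in the adipocyte values was not tested. For brown fat the defining Ucp1 lay at 0 to 0.325 RPKM in all 10 libraries. The sum of the 10 brown markers was 348 and 496 RPKM in KO P60 skin and 627 and 646 RPKM in WT P60 skin. Most of it came from Cox8b and Cox7a1, which muscle also expresses. The 8 sebaceous gland markers, which include the lipid genes Fasn, Scd1 and Plin2, summed to 429 and 350.3 RPKM in KO P60 skin and 209 and 301 RPKM in WT P60 skin, with 8 of 8 estimates above 0 and 1 called higher.

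**Figure D3:**
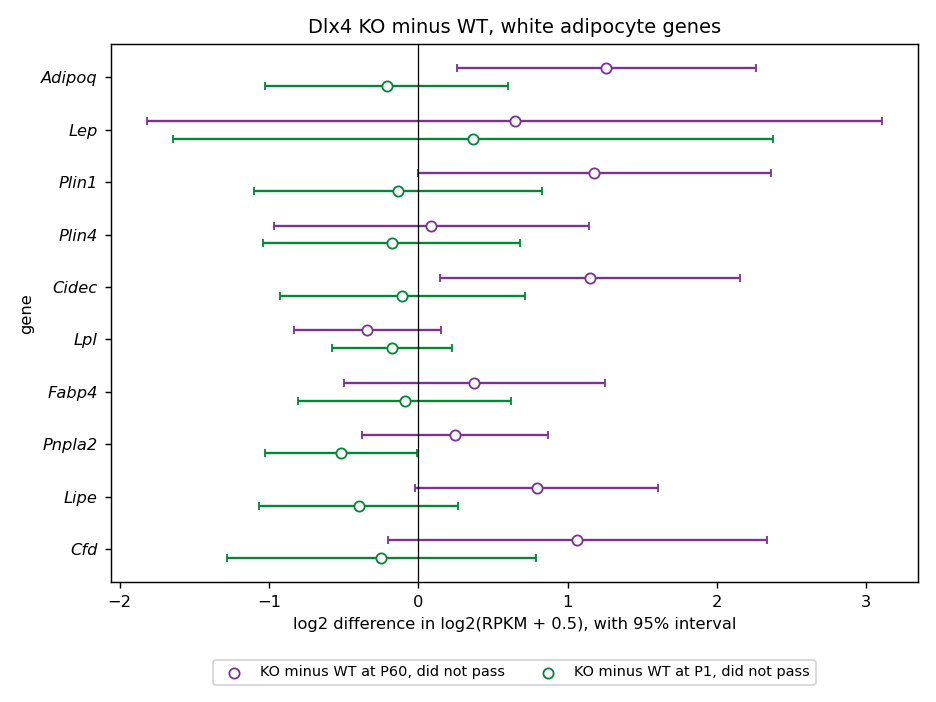
Log2 difference KO minus WT of log2(RPKM + 0.5) (x axis) for each gene (y axis), at P60 (purple) and P1 (green), with 95% intervals from limma; open points did not pass an adjusted p of 0.05. All 20 points are open, 9 of 10 lie above 0 at P60 (8 of 10 with median-of-ratios scaling), and 9 of 10 lie below 0 at P1 (6 of 10 without WT P1 replicate 2 or without KO P1 replicate 3).

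In newborn skin 0 of 10 genes were called, where 0% of all tested genes were (0 of 14026, limma). At an unadjusted p under 0.05 there was 1 of 10, beside 0.927% of all genes. KO and WT libraries overlapped in all 10, where 2.08% of all genes had KO wholly above WT and 2.48% wholly below. Estimates were below 0 in 9 of 10, with a median of -0.18 beside -0.01 for all genes, and 54.2% of all genes lay below 0. Single libraries set this: the median was -0.016 without WT P1 replicate 2 and -0.029 without KO P1 replicate 3, with 6 of 10 below 0 each time, and -0.33 without WT P1 replicate 3 and -0.38 without KO P1 replicate 1.

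The gene with the unadjusted p under 0.05 was Pnpla2. It had 49.7, 36.6 and 34.05 RPKM in KO P1 skin and 44.0, 55.3 and 75.8 RPKM in WT P1 skin. The highest KO library exceeded the lowest WT library, and the log2 difference was -0.52 (SE 0.23, unadjusted p = 0.0460, adjusted p = 1, limma). It was -0.31 without WT P1 replicate 3, which holds the highest value. Lipe had 36.3, 27.1 and 21.4 RPKM in KO P1 skin and 30.4, 49.5 and 32.6 RPKM in WT P1 skin, at -0.40 (SE 0.30). Adipoq had 148, 109 and 89.1 RPKM in KO P1 skin and 118, 172 and 110.1 RPKM in WT P1 skin, at -0.21 (SE 0.36). For Adipoq and Lipe alike the KO and WT ranges overlapped.

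The droplet genes at P1 were close to level. Plin1 had 76.3, 50.8 and 38.3 RPKM in KO P1 skin and 53.7, 63.4 and 58.2 RPKM in WT P1 skin (log2 difference -0.14, SE 0.43). Cidec had 58.5, 64.8 and 33.9 RPKM in KO P1 skin and 51.5, 61.9 and 50.6 RPKM in WT P1 skin (-0.11, SE 0.37). In both genes the WT libraries lay inside the range of the KO libraries. Plin4 had 27.4, 18.9 and 14.8 RPKM in KO P1 skin and 25.4, 37.6 and 11.6 RPKM in WT P1 skin (-0.18, SE 0.38), here with KO inside the WT range.

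Lpl had 169.8, 144 and 133 RPKM in KO P1 skin and 159.9, 217 and 136 RPKM in WT P1 skin (log2 difference -0.18, SE 0.18). Fabp4 had 1213, 1012 and 1141 RPKM in KO P1 skin and 1248, 1707 and 795 RPKM in WT P1 skin (-0.09, SE 0.32). The WT libraries of Fabp4 spread more widely than the KO libraries and enclosed them.

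The remaining hormone and protease genes hung on single newborn libraries. Lep had 7.43, 2.44 and 2.24 RPKM in KO P1 skin and 4.63, 9.22 and 0.0965 RPKM in WT P1 skin (log2 difference 0.37, SE 0.90). The lowest value, in WT P1 replicate 3, corresponds to about 12 reads by the GENCODE exon length, while the other libraries had about 263 to 1272 reads. In the same library Adipoq was at 110.1 RPKM and Plin4 was at its lowest level. Without WT P1 replicate 3 the Lep difference was -0.82. Cfd had 227, 232 and 141 RPKM in KO P1 skin and 126, 221 and 449 RPKM in WT P1 skin (-0.25, SE 0.46). Its highest value was also in WT P1 replicate 3, and without that library the difference was 0.23. That library had the highest summed muscle, endothelial and macrophage markers of the P1 libraries, at 8301, 126 and 180.5 RPKM, and the lowest keratinocyte markers, at 9393 RPKM. Their part in the result was not tested.

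Whether the KO minus WT difference itself differed between the ages was tested as the difference at P60 less that at P1. Of the 10 genes 0 were called, as were 0% of all genes. At an unadjusted p under 0.05 there were 2 of 10, Adipoq and Lipe, beside 22.9% of all genes (limma). Adipoq stood at 1.47 (SE 0.58, adjusted p = 0.178) and Lipe at 1.19 (SE 0.47, adjusted p = 0.178). Plin1 and Cfd stood at 1.31 each, Cidec at 1.26 and Pnpla2 at 0.77. The median was 0.98 beside 0.14 for all genes, and it was 0.38 without WT P60 replicate 1. Without WT P60 replicate 2, 3 genes were called: Plin1 at 2.33, Adipoq at 2.28 and Cidec at 2.06, in a fit that called 1.80% of all genes higher.

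Adult and newborn skin were compared next. Averaged over genotypes, 6 of 10 were called between P60 and P1, beside 81.7% of all tested genes. Cfd, Pnpla2 and Plin4 rose at P60, beside 24.3% of all genes, and Adipoq, Plin1 and Fabp4 fell, beside 57.3%. The median of all genes was itself shifted by -0.39 on the log2 scale, so the change of each of the 10 is also given relative to it.

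Cfd showed the widest rise. It averaged 669 ± 293 RPKM at P60 (n = 4) and 233 ± 116 RPKM at P1 (n = 6), with 820 and 923 RPKM in KO P60 skin, 256 and 675 RPKM in WT P60 skin and a P1 range of 126 to 449 RPKM. The ages overlapped because WT P1 replicate 3 lay above WT P60 replicate 1, which exceeded the other 5 P1 libraries. The log2 change was 1.497 (SE 0.37, adjusted p = 0.00342, limma), or 1.89 relative to all genes. Pnpla2 averaged 86.2 ± 16.7 RPKM at P60 and 49.2 ± 15.2 RPKM at P1, a log2 change of 0.83 (SE 0.18, adjusted p = 0.00161, limma), or 1.22 relative to all genes. Plin4 averaged 37.3 ± 7.86 RPKM at P60 and 22.6 ± 9.48 RPKM at P1, a log2 change of 0.79 (SE 0.30, adjusted p = 0.0340, limma), or 1.18 relative. The Plin4 call ended without any of 4 libraries in turn: KO P1 replicate 2 (adjusted p = 0.0586) or 3 (0.0737), WT P60 replicate 2 (0.126) or KO P60 replicate 2 (0.102).

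Adipoq fell the most. It averaged 60.3 ± 29.9 RPKM at P60 and 124 ± 30.2 RPKM at P1, and it was the only one of the 10 whose P60 libraries all lay below all P1 libraries, as they did in 50.1% of all genes; the reverse order, seen in 16.5% of all genes, was found in 0 of 10. The log2 change was -1.21 (SE 0.29, adjusted p = 0.00298, limma), or -0.82 relative to all genes. Plin1 averaged 31.1 ± 15.7 RPKM at P60 and 56.8 ± 12.7 RPKM at P1, a log2 change of -1.06 (SE 0.34, adjusted p = 0.0152, limma), or -0.67 relative. Fabp4 averaged 734 ± 236 RPKM at P60 and 1186 ± 304 RPKM at P1, a log2 change of -0.72 (SE 0.25, adjusted p = 0.0228, limma), or -0.33 relative.

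The falls of Plin1 and Fabp4 depended on the scaling. With median-of-ratios scaling of the libraries they were -0.64 and -0.29 (adjusted p of 0.114 and 0.324, limma), and the calls ended. The Plin1 call also ended without KO P60 replicate 1 (adjusted p = 0.0513), and the Fabp4 call without KO P60 replicate 1 (0.0830) or WT P60 replicate 1 (0.107). With no expression filter the Fabp4 and Plin4 calls ended (adjusted p of 0.0562 and 0.0728, limma). In contrast, Adipoq, Cfd and Pnpla2 were called in the same direction under every alternative run, with log2 changes of -1.61 to -0.78 for Adipoq, 1.15 to 1.93 for Cfd and 0.68 to 1.26 for Pnpla2.

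Lep, Cidec, Lpl and Lipe did not pass between the ages. Cidec averaged 67.1 ± 32.4 RPKM at P60 and 53.5 ± 11.1 RPKM at P1 (log2 change 0.17, SE 0.29). Lpl averaged 142 ± 25.8 RPKM at P60 and 160 ± 31.1 RPKM at P1 (-0.17, SE 0.14). Lipe averaged 32.03 ± 11.8 RPKM at P60 and 32.9 ± 9.58 RPKM at P1 (-0.09, SE 0.23). Lep averaged 4.43 ± 2.02 RPKM at P60 and 4.34 ± 3.45 RPKM at P1 (0.37, SE 0.71). Relative to all genes Cidec was at 0.56, Lpl at 0.22, Lipe at 0.30 and Lep at 0.76, so the signs of Lpl and Lipe turned. Without WT P60 replicate 1 Cidec was called higher at P60, at 0.57 (adjusted p = 0.0292, limma).

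**Figure D4:**
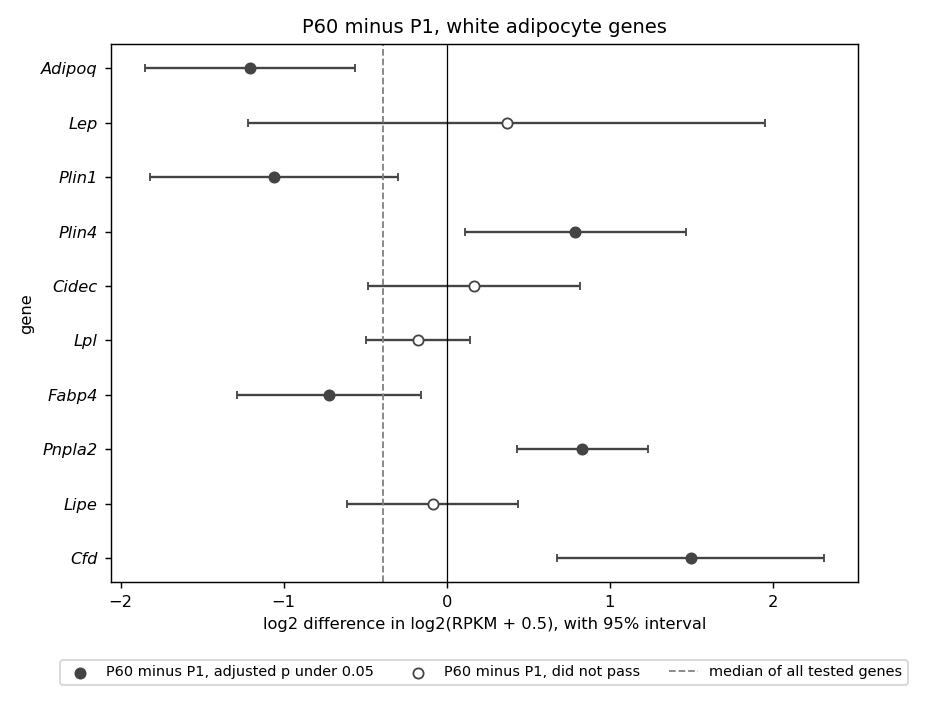
Log2 difference P60 minus P1 of log2(RPKM + 0.5), averaged over genotypes (x axis), for each gene (y axis) with its 95% interval from limma; filled points passed an adjusted p of 0.05 and the dashed line is the median of all tested genes at -0.39. Cfd, Pnpla2 and Plin4 are filled above 0, and Adipoq, Plin1 and Fabp4 are filled below 0.

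Age coincided with run, and with sex in all but 1 library, and the part of sex was not tested. KO P1 replicate 2, the P1 library with Y-linked reads, had 109 RPKM of Adipoq, 232 RPKM of Cfd and 36.6 RPKM of Pnpla2. The KO P60 libraries, also with Y-linked reads, lay below it in Adipoq (74.7 and 88.1 RPKM) and above it in Cfd (820 and 923 RPKM) and Pnpla2 (84.9 and 101 RPKM). Muscle markers, all 10 of which were called higher at P60, summed to 20660 to 53630 RPKM at P60 and 3909 to 8301 RPKM at P1, and their part in the age values was not tested. Keratinocyte marker sums were 3864 to 5317 RPKM at P60 and 9393 to 13630 RPKM at P1.

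Ratios between genes within a library do not depend on its scaling, and 4 were plotted after the values had been seen. Cfd over Adipoq was 10.5 to 13.5 in the 4 P60 libraries and 1.07 to 4.08 in the 6 P1 libraries. The age groups did not overlap, and WT P60 replicate 1 had the highest ratio although its levels of both genes were the lowest at P60. Lep over Adipoq was 0.0559 to 0.0914 at P60 and 0.000877 to 0.0535 at P1. Plin4 over Plin1 was 0.942 to 3.37 at P60 and 0.200 to 0.593 at P1. The Cfd over Adipoq and Plin4 over Plin1 ratios each set a gene called higher at P60 over a gene called lower. Their separation by age therefore restates those calls. How often other pairs of genes separate the ages was not counted. Pnpla2 over Lipe was 2.29 to 4.16 at P60 and 1.12 to 2.32 at P1, where the groups overlapped slightly. Cidec over Plin1, not plotted, was 1.94 to 2.69 at P60 and 0.766 to 1.28 at P1. The sum of all 10 genes, in contrast, differed by less than its spread. It came to 1863 ± 620 RPKM at P60 (n = 4) and 1922 ± 354 RPKM at P1 (SD, n = 6). Most of it came from Fabp4 (means of 734 RPKM at P60 and 1186 RPKM at P1) and Cfd (669 and 233 RPKM). Fabp4 was called lower and Cfd higher at P60, so the sum does not show that the genes were level.

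**Figure D5:**
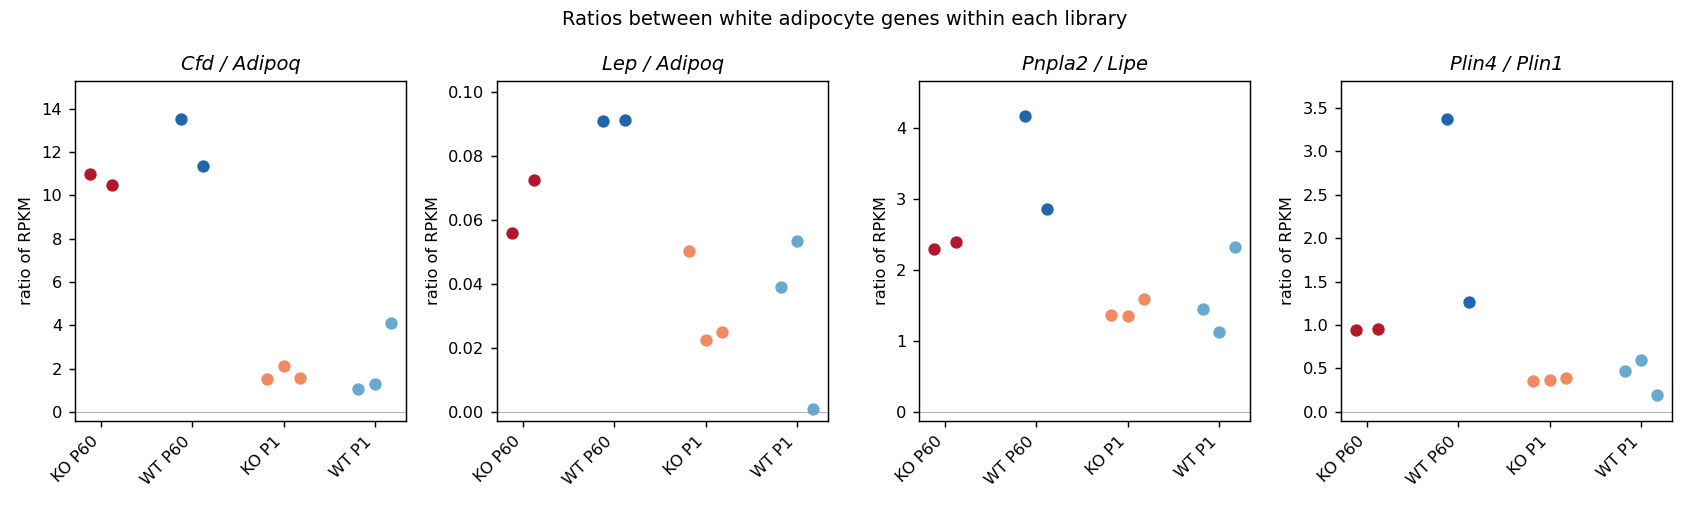
Ratio of the RPKM of 2 genes within each library (y axis, linear, from 0) for Cfd over Adipoq, Lep over Adipoq, Pnpla2 over Lipe and Plin4 over Plin1; each point is a library, grouped on the x axis as KO P60, WT P60, KO P1 and WT P1. P60 points lie above P1 points in the Cfd, Lep and Plin4 panels, and the groups overlap slightly in the Pnpla2 panel.

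Genes with the most similar course over the 10 libraries were found by the root mean square difference of log2(RPKM + 0.5) after centring each gene, among 13171 candidates. Nearest to Adipoq was another of the 10, Plin1, at 0.18. Aoc3 (0.19), Fn1 (0.20), Cdo1 (0.26), Tmem179 (0.26) and Lyve1 (0.27) came next. The other white adipocyte genes were farther from Adipoq: Fabp4 was at rank 96, Lipe at 1672, Cidec at 5397 and Lpl at 7379. Farthest were Plin4 at rank 11054, Pnpla2 at 11126, Lep at 11576 and Cfd at 12271. This distance was not scaled for spread, so it reflects the size of changes as well as their course. The SD on the log2 scale was 1.18 for Lep, 1.03 for Cfd and 0.264 for Lpl. Nearest to Lep was Plin4 at 0.72, followed by Gpd1, Slc22a3, Klhdc7a, Ffar2 and Ptger3, so even the closest gene followed Lep loosely. Nearest to Lpl was Pemt at 0.12, followed by Taldo1, Grpel1, Ccdc51, Fam20c and Cs, with no other of the 10 among them.

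Genes that act around these 10 in the fat cell were read from 7 lists, of which 84 genes were tested. At P60, 7 of 84 were higher in KO and 0 lower, beside 8.21% of all genes higher and 2.91% lower. The share higher was near that of all genes, and the median was 0.27 beside 0.13 for all tested genes. Among 12 adipogenic regulators 1 rose, Ebf1 (0.58, SE 0.14, adjusted p = 0.0385, limma). Pparg, the master regulator, had 6.96 and 7.16 RPKM in KO P60 skin and 3.496 and 5.83 RPKM in WT P60 skin, at 0.59 (adjusted p = 0.0861, limma). Among 11 partners of lipolysis 1 rose, Pde3b (0.86, SE 0.21, adjusted p = 0.0388, limma), which breaks down cyclic AMP after insulin. Of 15 adipokine and insulin response genes 2 rose, Nrg4 (0.71) and the chemerin gene Rarres2 (0.98). Of 10 progenitor genes 3 rose, Pdgfra (1.13), Cd34 (0.85) and Pdgfrb (0.81), which dermal fibroblasts express too. Other lipid droplet genes, the fatty acid uptake and triglyceride list, and fatty acid synthesis had 0 called. Over the 84 genes, 63 estimates were above 0 and 21 below, with no call among the latter. Below 0 were Lpin1 (-0.51, adjusted p = 0.0594), Slc2a4 (-0.67, 0.1085), Mlxipl (-0.43, 0.115) and Fitm1 (-0.99, 0.157, all limma). Fatty acid synthesis had 10 of 10 estimates above 0 (median 0.38), beside 65.8% of all genes, with Acly at 0.57 (adjusted p = 0.0505, limma).

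The 7 calls were not stable. There were 0 with the fit within each age, with quantile scaling and when any of 5 libraries was left out in turn, with 2 without KO P1 replicate 1, 11 without WT P1 replicate 3 and 12 without WT P60 replicate 2. All genes called came to 4.55%, 17.5% and 5.45% in these last 3 fits and to at most 0.193% in the 5 fits with 0 calls. Those 5 libraries were WT P1 replicate 1, KO P1 replicates 2 and 3, WT P60 replicate 1 and KO P60 replicate 1.

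At P1, 0 of 84 were called, with 29 estimates above 0 and 55 below (median -0.05). Between the ages 27 of 84 rose and 33 fell (median -0.17), beside 24.3% and 57.3% of all genes. With median-of-ratios scaling 37 rose and 21 fell, beside 39.6% of all genes in each direction. Dlk1, a gene of preadipocytes that is silenced as they mature, had 0.429 ± 0.145 RPKM at P60 (n = 4) and 94.9 ± 41.1 RPKM at P1 (n = 6), a log2 change of -6.60 (SE 0.28). The leptin receptor gene Lepr fell by 2.53 and Pparg fell by 1.22, while Cebpd, an early adipogenic regulator, rose by 3.15 and Mlxipl, which senses glucose for lipogenesis, rose by 1.73. Rarres2 rose by 2.14 and Scd2, a desaturase gene, fell by 2.00 on the log2 scale. The insulin-responsive glucose transporter gene Slc2a4, also of muscle, rose by 2.15.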

How the data were processed

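Total RNA of dorsal skin was sequenced in 10 libraries; kits from NEBnext (cDNA) and NuGen (library) were used, per the labels. Reads were aligned to mm10 with TopHat2 2.1.0 and expression was calculated in Partek, per the submitters' processing notes. The values used are RPKM that the authors computed and deposited per gene; with which annotation, the sources used here do not say. A deposited sheet lists the count of alignments and the run for each library. The authors' table of comparisons was not used.

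Here log2(RPKM + 0.5) was fitted with limma 3.58.1 in R 4.3.3. A single model held a mean for each of the 4 groups (6 residual degrees of freedom), with a mean-variance trend and the filter of at least 1 RPKM in at least 2 libraries, which kept 14026 of 24543 entries. Of these entries 3470 were 0 in all libraries and 26 had become dates. A log2 difference on this scale understates the change of low genes. P-values were adjusted by Benjamini-Hochberg within each of 4 contrasts, and an adjusted p under 0.05 was called. Spread is pooled over groups, so P60 tests also rest on P1 libraries. Any 2 libraries shared at most 1 identical nonzero value among all entries. The procedure was tested on simulated data.

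Members and gene lists were chosen with earlier results of these data known. All 10 members are named. From each list of other adipocyte genes the text draws on the 3 of smallest p at P60 and between ages and on 2 at P1, not all of which are printed; Pparg and Rarres2, named at P60, are also given between ages. Approximate read numbers used GENCODE M21 exon lengths. Of 89 listed symbols, 3 of them aliases, 86 were in the table. Alternatives were other pseudocounts, no filter, median-of-ratios or quantile scaling, array weights, a fit within age, a replicate block, and leaving out each library; those for the other adipocyte genes were added after seeing the data. Coordinates are mm10 (GRCm38).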

Additional observations from a re-analysis of the deposited data

Results flagged for a closer look

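Cfd in WT P1 replicate 3, at 449.2 RPKM, stood far above the other 5 P1 libraries, whose next highest value was 232 RPKM in KO P1 replicate 2. The gap was measured against the range of the P1 libraries by Dixon's criterion. Each of the 10 genes was examined over the 6 P1 and the 4 P60 libraries, 20 tests in all, and 1 passed, where chance alone flags about 1 in 20. At each age the libraries of both genotypes formed a single set. WT P60 replicate 1 was flagged in no gene. Its largest gap, in Plin1, was 0.747 of the range, against a critical value of 0.829 for 4 libraries.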

How the results depend on the processing

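With 2 libraries per group at P60, the genotype values rest on the spread between the 2 WT libraries, and RPKM without read counts leave the counting error of each gene unknown. The count of white adipocyte genes called KO minus WT at P60 was 0 to 3 when each library was left out in turn, as was that of the difference between ages, with 0 under all other alternatives; 0 were called at P1 under any. Between the ages 4 to 7 of 10 were called. Against the fit as reported, 2 such calls were gained and 11 were lost, counted over all members and alternatives. All-gene calls at P60 were 0 to 2443 over the left-out libraries. At P1 KO and WT libraries of the same replicate number had correlations of -0.166, 0.244 and -0.259, with no common sign. At P60 the same-number pairs were at 0.236 and the other pairs at -0.236. With 2 libraries per group these values are equal in size by construction. They cannot decide whether the replicate number pairs the P60 samples. With the replicate block 0 white adipocyte genes were called at either age, and 0 of the other adipocyte genes at P60. Those other genes, 7 in the fit as reported, came to 1 with no filter, 3 with median-of-ratios scaling (2 higher, 1 lower), 3 with array weights, 0 with quantile scaling or a fit within age, and 0 to 12 over the left-out libraries. Between the ages quantile scaling gave 36 higher and 25 lower. Signs turned, with no call, in the following, and the cause was not tested. With array weights at P1, Lep was -0.75, Cidec 0.19 and Cfd 0.63. That fit gave KO P1 replicate 2 (9.35) and WT P1 replicate 1 (5.41) the largest weights and WT P1 replicate 3 (0.244) the smallest. With median-of-ratios scaling Plin4 was -0.063 at P60, and between ages Lpl was 0.26 and Lipe 0.34, with Lipe at 0.079 under quantile scaling and 0.019 with array weights. Lep in the difference between ages was -0.059 at a pseudocount of 0.1. Leaving out each library gave, at P1, Plin4 -0.64 to 0.19, Lpl -0.33 to 0.0058, Fabp4 -0.38 to 0.17, Lep -0.82 to 1.19, Cfd -0.69 to 0.23, Plin1 -0.40 to 0.094 and Cidec -0.29 to 0.18. At P60 it gave Lep -0.064 to 1.35, Plin4 -0.25 to 0.42, Fabp4 -0.17 to 0.92 and Pnpla2 -0.052 to 0.55. Between the ages it gave Lipe -0.37 to 0.19, Lep -0.23 to 0.78 and Cidec -0.23 to 0.57 (called without WT P60 replicate 1). For the difference between ages it gave Lep -0.55 to 1.47, Plin4 -0.10 to 0.72, Fabp4 -0.079 to 1.01 and Lpl -0.35 to 0.017.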
